A study of Mus musculus with 30 samples.

Results

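The cytosolic ribosome is built from a large and a small subunit, each a scaffold of ribosomal RNA coated with ribosomal proteins. The genes of these proteins are transcribed at high levels in growing cells, are targets of Myc, and give transcripts that start with a run of pyrimidines (the terminal oligopyrimidine, or TOP, motif) through which the mTOR kinase controls their translation. Free Rpl5 and Rpl11 bind Mdm2 when ribosome assembly fails, which links the family to p53, and Rps27l, a paralog of Rps27, is itself a p53 target. Ribosomal protein genes were examined here in lymphoma cells driven by Myc and exposed to mafosfamide, a form of cyclophosphamide that is active in culture and alkylates DNA.

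Members were chosen by name. Probe sets with a single gene symbol that began with Rpl or Rps followed by a digit, or that read Rplp0, Rplp1, Rplp2 or Rpsa, were taken, pseudogenes and the ribosomal S6 kinases were left out, and a gene was represented by its probe set of highest mean signal. This gave 63 of 19937 genes. They comprised 30 large subunit genes, 21 small subunit genes, the 3 genes of the P stalk, 6 paralogs (Rps27l, Rpl7l1, Rpl3l, Rpl10l, Rpl39l and Rps4l), 2 further genes matched by name (Rpl32l and Rps23rg1) and Rps19bp1, whose product binds Rps19 but is no subunit of the ribosome. The large subunit, small subunit and stalk genes are called the 54 subunit genes below. A further 20 symbols fit the name rule only in probe sets shared with other symbols, 16 of them standard subunits (Rpl3, Rpl11, Rpl13a, Rpl15, Rpl17, Rpl31, Rpl32, Rpl35, Rpl35a, Rpl37, Rpl39, Rps16, Rps23, Rps24, Rps26 and Rps27), and were not examined.

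The parental line was a lymphoma of 1 C57BL/6J Eµ-Myc; Cdkn2a-/- mouse, in which an immunoglobulin heavy chain enhancer drives Myc in B-lineage cells and Cdkn2a (p16INK4a and p19ARF) is lost, and every group below carries both alterations. Parental cells were sampled at 0 h (n = 5 arrays) and after 6, 12, 24 and 48 h in 750 nM mafosfamide (n = 4, 4, 5 and 5). R500, R1000 and R4000 cells, from successive steps of 1 dose escalation to 500, 1000 and 4000 nM, were measured once each after 24 h in 750 nM mafosfamide, and these lines and R100 (100 nM) once each without drug. The lines are therefore not independent derivations, and a line is the replicate in what follows. All cultures stood on irradiated Cdkn2a-/- mouse embryonic fibroblasts.

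Values are log2 signals on Affymetrix Mouse Gene ST 1.0 arrays after robust multi-array averaging (RMA), which gives all arrays a common intensity distribution. A change of total RNA per cell is not visible in them, and fewer cells of a type cannot be told apart from less RNA per cell. Of 11 B-lineage marker genes, 9 were above the array median on all 30 arrays, against 0 of 9 T and NK cell markers, and 17 of 30 fibroblast markers were above it on all arrays. The mean of the fibroblast markers lay between 8.59 and 10.02 at 24 h against 8.33 to 8.85 at 0 h in parental cells. The fifth 0 h array had an interquartile range of 2.97 over all genes, outside the 3.36 to 3.75 of the other arrays.

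Probe signals of the members were high. Of the 63 genes, 48 lay above the 90th and 30 above the 99th percentile of the mean signals of all genes, where arrays compress differences. Probe signals do not rank transcripts, because probe sets differ in efficiency. The members varied little between arrays of the same time, with a median SD of 0.11 (range 0.04 to 0.45) against 0.15 over all genes and 0.10 over the genes in the top 5% of mean signal.

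The 5′ ends of members that recur in the results are shown here, since the TOP motif is the sequence feature that the family is known for: 8 windows that hold a pyrimidine run near the annotated start and 3 that do not, as was the case for most matched members. Sequences are from RefSeq promoter windows of assembly GRCm38.p6, which held 51 of the 63 members. Each runs from 10 bases before the annotated start through the first 20 transcribed bases, on the strand of the gene. Capitals mark a C and the unbroken run of at least 4 bases after it that are each C or T, where such a C lay within 5 bases of the annotated start.
Rpl38 (chr11:114668570-114668599, + strand): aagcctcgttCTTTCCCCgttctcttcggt
Rplp2 (chr7:141447641-141447670, + strand): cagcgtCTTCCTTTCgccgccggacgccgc
Rps15a (chr7:118116128-118116157, - strand): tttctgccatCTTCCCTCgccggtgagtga
Rps6 (chr4:86857348-86857377, - strand): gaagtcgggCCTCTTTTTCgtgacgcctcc
Rps18 (chr17:33955646-33955675, - strand): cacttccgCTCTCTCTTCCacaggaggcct
Rpl14 (chr9:120571507-120571536, + strand): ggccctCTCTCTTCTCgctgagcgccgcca
Rpl7a (chr2:26910797-26910826, + strand): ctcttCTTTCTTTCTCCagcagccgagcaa
Rps27l (chr9:66946076-66946105, + strand): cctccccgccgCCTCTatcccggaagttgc
Rplp0 (chr5:115559457-115559486, + strand, no run): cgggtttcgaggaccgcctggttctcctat
Rpl5 (chr5:107900518-107900547, + strand, no run): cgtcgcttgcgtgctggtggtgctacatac
Rps4x (chrX:102189372-102189401, - strand, no run): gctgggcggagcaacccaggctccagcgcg
Counted from its C, the marked run was 8 bases long and began at the annotated start in Rpl38 and Rps15a. In Rplp2, Rps6, Rps18 and Rpl14 the annotated start lay inside a marked run of 9 to 11 bases. In the Rps27l window shown, a shorter marked run of 5 bases began at the base after it. Another annotated start of Rps27l (window chr9:66946403-66946432) had no such run. In Rpl7a a marked run of 12 bases began 5 bases upstream, at the limit of the search. Pyrimidines before the marked C were not counted, and they directly preceded it in Rpl38, Rps15a, Rplp2, Rpl14 and Rpl7a. Over all matched members, 10 of 51 (19.6%) had the motif with its C at the annotated start, against 3.01% of 27025 genes in the promoter table and 0 of 68 mitochondrial ribosomal protein genes. With the C allowed within 5 bases, 19 of 51 members (37.3%) and 21.2% of all genes had it. The annotated start need not be the start used in these cells, so a window without the run shows only that these letters were not there.

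To determine whether ribosomal protein transcripts changed during mafosfamide treatment, each time was compared with 0 h in a limma fit over the 23 parental arrays, a linear model that shares information on the spread across genes. A gene was called where its Benjamini-Hochberg adjusted p over all 19937 genes was under 0.05. In this fit, which did not pair arrays of different times, Rps27l was the only member whose change passed the test over all genes. A paired fit, described below, called 6 of 63 members at 24 h, against 23.6% of all genes. On the probe set chosen for each gene, no member differed by more than 0.5 on the log2 scale in any of the 9 comparisons made. At 6 h, 0 of 63 members were called, against 0.0201% of all genes. At 12 h, 0 of 63 were called, against 0.512% of all genes. At 24 h, when 6.78% of all genes passed (867 higher and 484 lower), 1 of 63 members did. At 48 h, 0 of 63 were called against 0.251% of all genes, and between 48 h and 24 h 0 of 63 against 0.105%. At an unadjusted p under 0.05 the counts were 0, 1, 5 and 1 members at 6, 12, 24 and 48 h against 0 h, and 2 for 48 h against 24 h, beside 5.13%, 11.9%, 29.4%, 11.7% and 6.77% of all genes. All of these comparisons with 0 h share the same 5 control arrays.

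The median change of the 63 members was -0.04 at 6 h, and -0.02 at 12, 24 and 48 h, beside -0.01, -0.03, -0.04 and -0.02 over all genes. By subunit at 24 h, the median was -0.03 in the 30 large and in the 21 small subunit genes and -0.02 in the 3 stalk genes. The members above zero numbered 13 of 63 at 6 h (20.6%, against 45.2% of all genes), 23 at 12 h (36.5% against 42.8%), 22 at 24 h (34.9% against 42.9%) and 16 at 48 h (25.4% against 43.9%). At 24 h, the 95% confidence interval of the change lay within 0.5 of zero for 60 of 63 members and within 0.25 for 40. Rplp0, often used as a reference gene in PCR and the scaffold of the stalk that contacts elongation factors, averaged 13.95 ± 0.02 at 24 h and 13.97 ± 0.05 at 0 h (SD, n = 5 each), a change of -0.02 (95% interval -0.12 to 0.07). Rps6, the substrate of the S6 kinases, averaged 14.12 ± 0.09 at 24 h and 14.11 ± 0.10 at 0 h. Rpl5, which carries 5S RNA into the large subunit, averaged 13.22 ± 0.08 at 24 h and 13.30 ± 0.08 at 0 h, with an adjusted p of 0.458 from limma. Rpsa, the laminin receptor precursor that is also a small subunit protein, lay between -0.08 and 0.07 in all 9 comparisons, and Rplp1, the partner of Rplp2, between -0.02 and 0.06. Myc itself averaged 13.07 ± 0.03 at 24 h and 13.13 ± 0.10 at 0 h.

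Apart from Rps27l at 24 h, the members furthest from zero at each time did not pass the test. At 6 h the highest changes were those of Rpl12, Rpl7a and Rpl7l1 (0.08 each), and the lowest those of Rpl3l (-0.28), Rpl29 (-0.16) and Rps4l (-0.13). At 12 h they were Rps27l (0.22), Rpl7a (0.17) and Rpl30 (0.14), and at the low end Rpl3l (-0.24), Rps3a1 (-0.20) and Rpl14 (-0.18). Rpl7l1 and Rpl24 (0.08 each) came after Rps27l at 24 h. At 48 h the highest were Rpl7a (0.16), Rpl27 (0.14) and Rpl12 (0.12), and the lowest Rpl29 (-0.23), Rps23rg1 (-0.20) and Rpl21 (-0.19). Between 48 h and 24 h, Rplp2 (0.18) was highest, and Rpl3l (-0.24) and Rpl24 (-0.14) were lowest. Rpl7a illustrates the spread: its 5 arrays at 0 h stood at 8.58, 8.65, 9.59, 9.32 and 8.17.

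**Figure D1:**
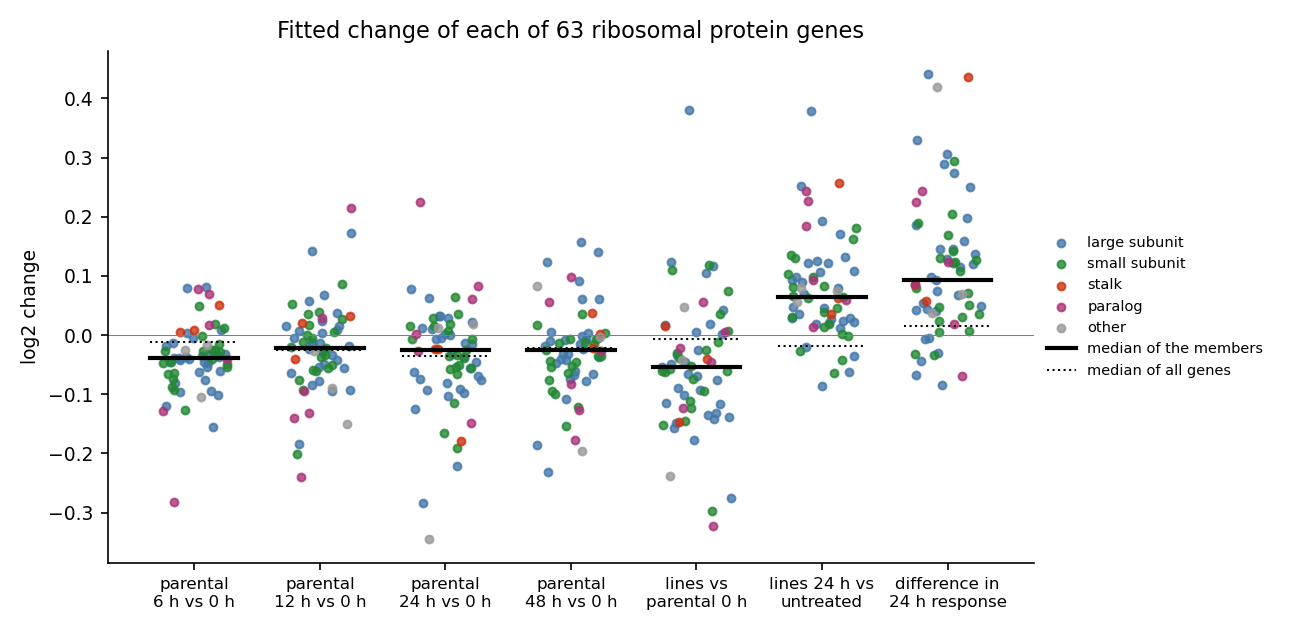
Each dot is the fitted log2 change of 1 of the 63 ribosomal protein genes (y axis) in 7 comparisons (x axis), colored by class; solid bars mark the median of the members and dotted bars the median of all 19937 genes. The members lie between -0.35 and 0.44 throughout, and 55 of 63 are above zero in the treated resistant lines, against 43.2% of all genes.

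Rps27l, the stress-induced paralog of the small subunit protein Rps27, was higher at 24 h. Its signal at 24 h was 12.67, 12.72, 12.68, 12.71 and 12.59 in replicates 1 to 5, against 12.68, 12.45, 12.36, 12.40 and 12.36 at 0 h. The first 0 h array was as high as the treated ones and the other 4 were below all of them. The rise at 24 h was 0.22 on the log2 scale (SE 0.06, 95% interval 0.10 to 0.35), 1.17-fold, with an adjusted p of 0.030 (limma, Benjamini-Hochberg). At 12 h the arrays stood at 12.55, 12.66, 12.74 and 12.70 and the difference from 0 h was 0.22 (adjusted p = 0.158). At 6 h the signal was 12.41 to 12.53, and at 48 h it was 12.50 to 12.60. The decrease between 24 h and 48 h, of 0.13, did not pass the test (adjusted p = 0.728).

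The call for Rps27l at 24 h was close to the threshold. It was lost without 0 h replicate 3 or 5 (adjusted p = 0.077 and 0.070) and without 24 h replicate 1, 2 or 4 (0.051, 0.065 and 0.061), while the change stayed between 0.20 and 0.28. With the mean of the fibroblast markers as a covariate the change was 0.21 and the adjusted p 0.193. Zmat3, a p53 target that is no ribosomal protein, also had its highest mean at 24 h. It averaged 7.50 ± 0.21 at 0 h, 8.02 ± 0.25 at 6 h, 9.31 ± 0.09 at 12 h, 9.49 ± 0.17 at 24 h and 8.20 ± 0.20 at 48 h (SD). Unlike the decrease of Rps27l between 24 h and 48 h, that of Zmat3 passed the test (-1.28, adjusted p = 1.8e-06).

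**Figure D2:**
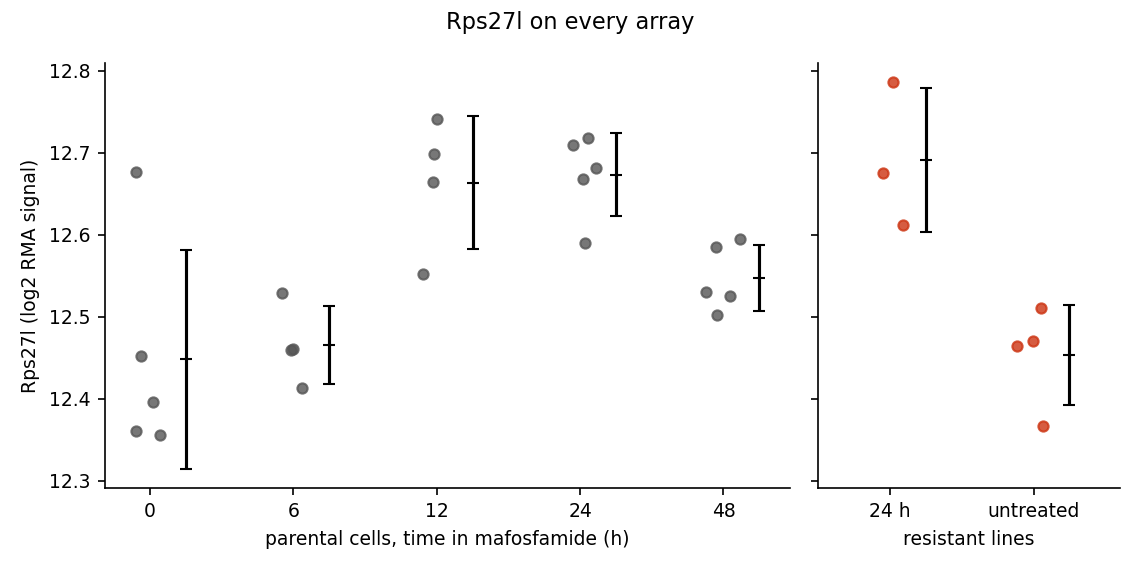
Rps27l log2 signal on every array: parental cells by hours in 750 nM mafosfamide (left; 5, 4, 4, 5 and 5 arrays) and resistant lines after 24 h of drug and untreated (right; 3 and 4 lines). Points are arrays and bars mean ± SD; the treated lines lie between 12.61 and 12.79, above the untreated lines at 12.37 to 12.51.

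Below Rps27l, the members with the lowest p-values at 24 h were lower and did not pass the test. Rps15a, a small subunit protein, stood at 10.58, 10.52, 10.53, 10.44 and 10.46 at 24 h against 10.59, 10.84, 10.76, 10.67 and 10.62 at 0 h. It was the only member with all 24 h arrays on 1 side of all 0 h arrays, against 4.57% of all genes, with a change of -0.19 (adjusted p = 0.096). Rplp2, a phosphoprotein of the stalk, averaged 8.22 ± 0.11 at 24 h and 8.40 ± 0.12 at 0 h (change -0.18, adjusted p = 0.115), and 8.40 ± 0.10 again at 48 h. Rps23rg1, a retrotransposed copy of Rps23, stood at 6.97, 7.30, 7.23, 7.20 and 7.30 at 24 h against 7.28, 7.55, 7.41, 7.40 and 8.09 at 0 h. The change was -0.35 (adjusted p = 0.081, limma). Its signal was low, with a mean of 7.37 at the 46.9th percentile of genes. The fifth 0 h array, above the rest here, was also the one with the narrowest interquartile range over all genes. Rpl21, a large subunit protein, stood at 11.73, 12.01, 12.20, 12.23 and 12.28 at 24 h against 12.05, 12.22, 12.55, 12.44 and 12.60 at 0 h (-0.28, adjusted p = 0.168), so every array was below its counterpart of the same number while the groups overlapped. By size of change rather than p, Rpl29, a large subunit protein, followed Rps23rg1 and Rpl21 with -0.22.

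Deviations of 24 h and 0 h arrays sharing an array number in the sample description correlated with r of 0.13 to 0.34. With that number as a block, 6 of 63 members were called at 24 h, against 23.6% of all genes. These were Rps27l (adjusted p = 0.0091) and, lower, Rpl21 (0.0033), Rps23rg1 (0.0126), Rplp2 (0.0209), Rps15a (0.0428) and Rpl26 (0.0482). In all 5 pairs 10 members were lower at 24 h (Rpl9, Rpl21, Rpl22, Rpl26, Rpl27a, Rpl36, Rpl39l, Rplp2, Rps15a and Rps23rg1), against 11.6% of all genes, and 0 were higher, against 9.07%. Within numbers 1 to 5, Rplp2 changed by -0.16, -0.10, -0.19, -0.25 and -0.19. Rps27l changed by -0.01, 0.27, 0.32, 0.31 and 0.23, so the pair of number 1 was the one without a rise. At 12 h the block gave 1 member, Rps27l (0.23, adjusted p = 0.038), against 3.55% of all genes.

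Few of the genes that act around the ribosome passed the test, and 6.78% of all genes did so at 24 h. Of 77 mitochondrial ribosomal protein genes, 2 passed at 24 h, both higher (Mrps25 by 0.30 and Mrps6 by 0.47), and 0 at the other times. Of 54 ribosome biogenesis genes, 1 passed at 24 h (Noc3l, 0.35), of 34 initiation factor genes 1 (Eif1b, -0.21), and of 10 elongation factor genes 0. In the list of 17 genes of the TOR and S6 kinase pathway, Mtor, the kinase that acts on TOP transcripts, rose by 0.41 at 12 h and 0.31 at 24 h. Ddit4, an inhibitor of mTOR complex 1, fell by 0.43 at 24 h and 0.68 at 48 h. The small shifts of whole lists differed from that of the ribosomal protein genes at 48 h, where 69 of 77 mitochondrial ribosomal protein genes (median 0.11) and 49 of 54 biogenesis genes (median 0.09) were above zero against 16 of 63 members, and 43.9% of all genes. In the fibroblast list 17 of 30 genes were higher at 24 h, against 867 of all 19937 genes. The part of these feeder cell transcripts in the changes of single genes was not tested apart from the covariate fits.

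More members passed the test among array numbers than in any comparison of times. Arrays of parental cells carry numbers 1 to 5 in their descriptions (numbers 2 to 5 at 6 and 12 h). The labels do not say what the number stands for. Adjusted for time, 40 of 63 members differed among the numbers (limma F test, adjusted over all genes), against 32.2% of all genes, and 49 of 77 mitochondrial ribosomal protein genes did.

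The mean of the 54 subunit genes was lowest in array number 2 at every time. It was 12.56, 12.46, 12.50, 12.58 and 12.53 at 0, 6, 12, 24 and 48 h, against ranges of 12.69 to 12.73, 12.66 to 12.74, 12.67 to 12.76, 12.64 to 12.66 and 12.66 to 12.73 on the other arrays of those times. Number 2 was singled out after its values were seen, so the values below are a description. Without its 5 arrays, 9 of 63 members differed among the other numbers, against 14.3% of all genes.

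**Figure D3:**
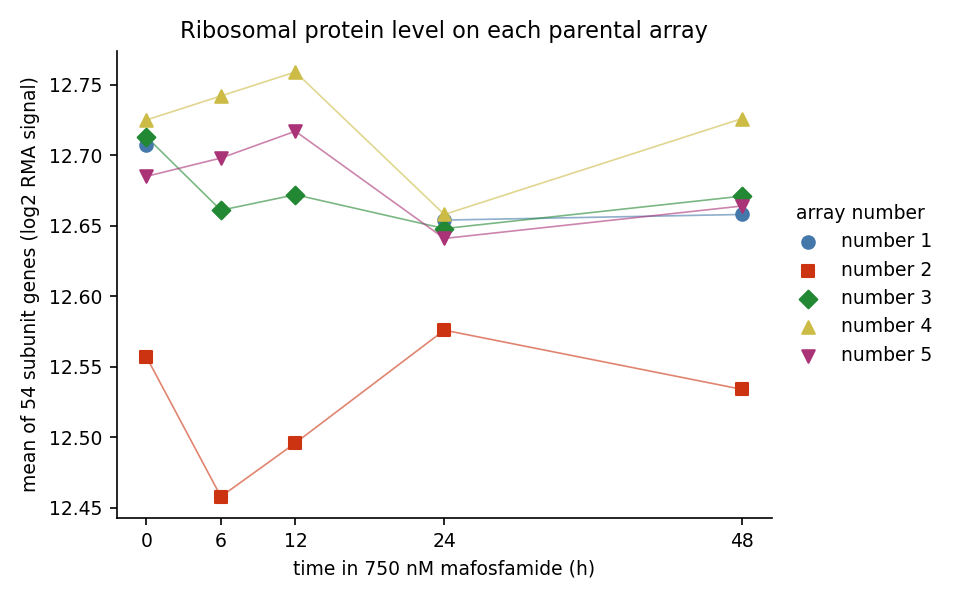
Mean log2 signal of the 54 subunit genes on each of the 23 parental arrays (y axis) by hours in 750 nM mafosfamide (x axis, to scale), marked by array number; lines join successive times of 1 number. Number 2 lies between 12.46 and 12.58, below all other arrays, which lie between 12.64 and 12.76.

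The shift ran through most of the family but not all of it. In number 2, 39 of 63 members were below the mean of the other arrays at all 5 times, against 14.8% of all genes, and 2 members were above it at all 5 times, against 15.7%. The lowest mean differences were those of the large subunit genes Rpl7a (-0.51), Rpl13 (-0.47), Rpl23a (-0.47) and Rpl8 (-0.43). Rpl14 (-0.41) and Rpl3l (-0.41), Rps29 (-0.39) and Rps14 (-0.39) of the small subunit, Rps19bp1 (-0.37) and, further up, Rps9 (-0.33) followed. For Rpl8 the single differences were -0.38, -0.56, -0.59, -0.24 and -0.38 at the 5 times. Rpl14 went the other way at 24 h only, with 0.33 there against -0.53 to -0.74 at the other times. The retrotransposed or testis-type copies Rps23rg1 (0.17) and Rpl10l (0.20) were the 2 members above the others at every time. On average Rpl38 (0.01), Rpl10 (0.01), Rplp1 (-0.02), Rplp0 (-0.04) and Rps27l (-0.01) differed little, and Rps15a (0.08) and Rpl30 (0.09) lay above the others. In the same arrays the mean of the mitochondrial ribosomal protein genes was lower at every time (by 0.09 to 0.26), the mean of the B-lineage markers was higher by 0.04 to 0.44, and Myc was higher by 0.01 to 0.18. The means of the initiation (-0.05 to -0.16) and elongation factor genes (-0.06 to -0.17) were also lower at every time. The difference of the biogenesis mean ran from -0.18 to 0.04, and that of the fibroblast marker mean from -0.20 at 0 h to 0.69 at 48 h. Over all genes, the median of number 2 was 7.62, 7.61 and 7.62 at 6, 12 and 48 h, above every other array of those times. At 0 and 24 h it was within their range. Its interquartile range was 3.43, 3.52 and 3.58 at 6, 12 and 24 h, below every other array of those times, and within their range at 0 and 48 h. The part of these shifts in the ribosomal protein values was not tested.

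**Figure D4:**
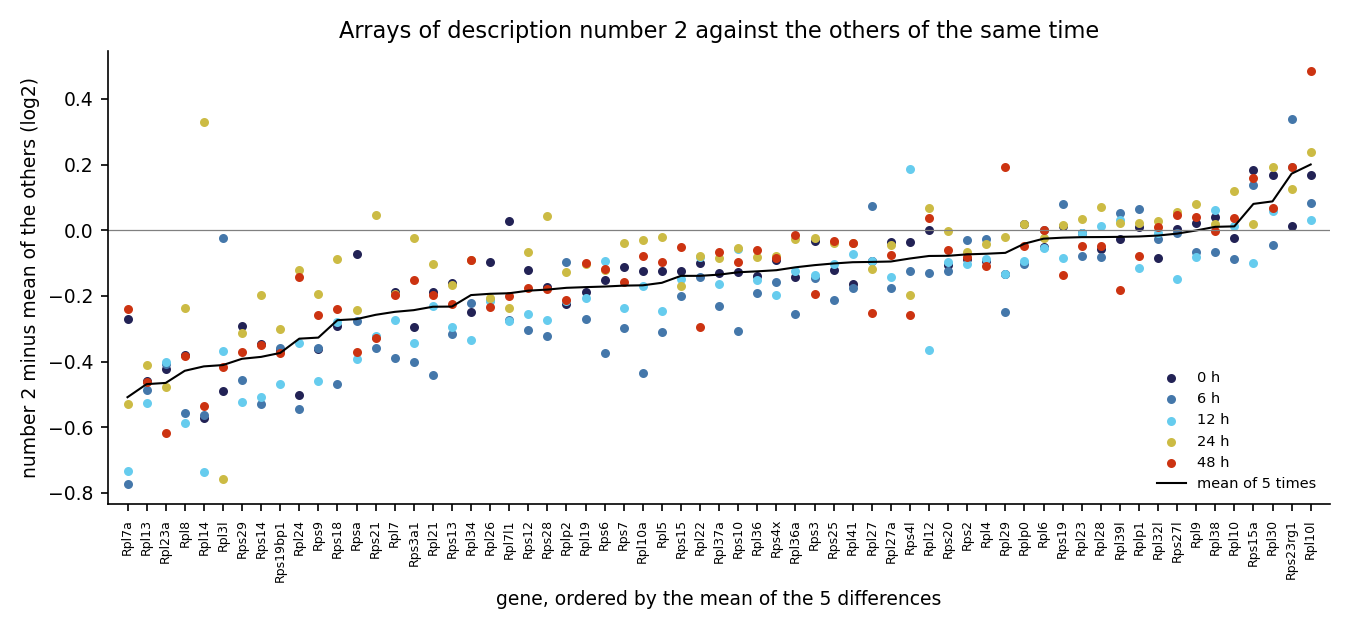
Log2 signal of the number 2 array minus the mean of the other parental arrays of the same time (y axis) for each of the 63 members (x axis, ordered by mean difference); colors are the 5 times and the line is their mean. Most members lie below zero, from -0.51 for Rpl7a to 0.20 for Rpl10l.

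Across the 23 parental arrays, after the mean of each time was removed, the subunit genes varied together. The means of the large and small subunit genes correlated with Pearson's r = 0.97, and a subunit gene correlated with the mean of the others with a median r of 0.73 (40 of 54 over 0.5). The arrays share normalization and array numbers, and without number 2 these values were 0.77 and 0.35 over 18 arrays. Rps13 (0.96), Rpl8 (0.95) and Rps18 (0.94) followed the other subunit genes most closely. At the other end, Rps15a, Rpl30, Rpl38 and Rps19 had correlations of -0.13, -0.10, -0.08 and -0.03. Without number 2, the values were 0.65 for Rps15a and -0.09 for Rpl38. The means of the subunit and the mitochondrial ribosomal protein genes correlated with r = 0.69, and with 0.26 over the 18 arrays.

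To ask whether resistance was accompanied by altered ribosomal protein levels, the 4 untreated lines were set against the 5 parental arrays taken at 0 h. No member passed (0 of 63, against 0.0752% of all genes in this limma fit). At an unadjusted p under 0.05 there were 3 members (4.76%), against 7.10% of all genes. The median change was -0.05, beside -0.01 over all genes. Above zero were 18 members (28.6%, against 48.0% of all genes), and 45 were below. The subunit mean was 12.58 to 12.66 in the lines and 12.56 to 12.73 in parental cells at 0 h. For the slope per step over parental, R100, R500, R1000 and R4000, 0 of 63 members passed, against 0.0% of all genes, and 1 member (1.59%) had an unadjusted p under 0.05, against 4.36% of all genes.

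Rpl38, a large subunit protein that is needed for translation of Hox transcripts in the mouse embryo, had the lowest p of the family. Its signal was 13.29, 13.32, 13.30 and 13.17 in untreated R100, R500, R1000 and R4000, against 13.57, 13.58, 13.52, 13.48 and 13.58 in parental cells at 0 h. All 4 lines were below all 23 parental arrays of any time, the lowest of which stood at 13.39. The difference was -0.28 (95% interval -0.43 to -0.12, adjusted p = 0.273), and the slope -0.09 per step (adjusted p = 0.881). Over the 16 settings run, the difference lay between -0.29 and -0.24, and it passed with a trended and robust variance (adjusted p = 0.038). All 4 probe sets of Rpl38 gave negative differences, between -0.33 and -0.19.

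Rps19, the small subunit protein most often mutated in Diamond-Blackfan anemia in people, stood at 12.26, 12.42, 12.46 and 12.61 in R100, R500, R1000 and R4000 against 12.57 to 12.89 in parental cells at 0 h. The difference was -0.30 (adjusted p = 0.494), and the groups overlapped through R4000. Rpl7a, a large subunit protein, had the highest difference, with 9.05 to 9.36 in the lines against 8.17 to 9.59 at 0 h (0.38, adjusted p = 0.835), so the lines lay inside the parental range. Rpl3l, the striated muscle paralog of Rpl3, had the lowest (-0.32). No overlap in either direction was seen for 5 members. Rpl28, Rpl38, Rpl9 and Rps4x were lower in all lines (4 of 63, against 1.33% of all genes) and Rpl34 was higher (1 of 63, against 2.32%). Rps4x, encoded on the X chromosome, stood at 12.98, 13.10, 13.02 and 13.07 in R100, R500, R1000 and R4000 against 13.12 to 13.27 at 0 h (-0.15, adjusted p = 0.719). Rpl9 stood at 13.97, 14.01, 14.11 and 14.15 in the same lines against 14.20 to 14.31 at 0 h (-0.18, adjusted p = 0.637), with the line of lowest resistance furthest from parental cells.

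When probe sets were ordered by how their signal covaried with rank of resistance, the lowest 1000 of 34760 held 7 of the 195 probe sets with a single member symbol (3.59%) and the highest 1000 held 1 (0.513%), against 2.88% of all probe sets at each end. The 7 belonged to Rpl13, Rpl23a, Rpl27a, Rpl28, Rpl29, Rpl36 and Rpl38, and the 1 to another probe set of Rpl13. With the log10 of the selection dose in place of ranks, the lowest end held 5 (2.56%: Rpl10, Rpl13, Rpl23a, Rpl27a and Rpl36), without Rpl38, and the highest held 1 (Rps25). Parental cells, which had no selection dose, were entered as 1 nM, so this order set them far apart from all lines. Around the ribosome, Ddit4 fell by 0.89 in the lines. It was the only gene called in the mitochondrial ribosomal protein, biogenesis, initiation, elongation and TOR lists. In the biogenesis list 48 of 54 genes were above zero (median 0.19), against 18 of 63 members and 48.0% of all genes.

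The lines were next compared with themselves after 24 h in 750 nM mafosfamide, in a fit over 16 arrays that gave each line its own baseline. The estimate of the spread in this fit came mostly from its parental arrays. No member passed (0 of 63, against 0.0301% of all genes; 3 members, or 4.76%, at an unadjusted p under 0.05, against 2.90% of all genes), and the values were shifted upward. Of 63 members, 55 were above zero (87.3%, against 43.2% of all genes), with a median of 0.06 beside -0.02 over all genes. In all 3 lines 27 members were higher after treatment (14.5% of all genes were) and 3 were lower (21.5% of all genes). The 27 were Rpl4, Rpl6, Rpl9, Rpl12, Rpl13, Rpl14, Rpl23a, Rpl24, Rpl26, Rpl28, Rpl36, Rpl37a and Rpl38 of the large subunit, Rps3, Rps4x, Rps7, Rps13, Rps15, Rps15a, Rps18, Rps19 and Rps20 of the small subunit, Rplp0 and Rplp2 of the stalk, and Rps27l, Rpl10l and Rps19bp1. The 3 were Rpl7a, Rps28 and Rps29. The subunit mean was 12.67, 12.70 and 12.73 in treated R500, R1000 and R4000, against 12.58, 12.66 and 12.65 in the same lines untreated. The fibroblast marker mean was lower in the treated lines, 8.15 to 8.49 against 8.52 to 8.71, the direction opposite to that in parental cells.

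Rpl38 was among the members furthest up. It was described above for its low values in the untreated lines, and the same single arrays are the baseline here, so the rise and the difference from parental cells are not independent. It stood at 13.56, 13.49 and 13.49 in treated R500, R1000 and R4000, against 13.32, 13.30 and 13.17 in these lines untreated. The rise of 0.25 (95% interval 0.08 to 0.42) did not pass in the main fit, where the adjusted p was 1.00, and passed with array weights (adjusted p = 0.034). Rpl14, a large subunit protein, stood at 10.83, 10.82 and 10.92 in treated R500, R1000 and R4000 against 10.45, 10.47 and 10.51 untreated, the highest change of any member (0.38). Rplp2 stood at 8.43, 8.48 and 8.56 in the treated lines against 8.20, 8.24 and 8.25 untreated (0.26). Rps27l stood at 12.67, 12.61 and 12.79 treated against 12.37, 12.46 and 12.51 untreated (0.24, 1.18-fold). Treated lines lay above untreated lines without overlap for these 4 genes and for Rpl6, Rpl9, Rpl24, Rplp0, Rps4x, Rps7, Rps13, Rps18 and Rps20, in all 13 of 63 members against 5.52% of all genes, and below them for 0 members against 7.28%. Rps19 overlapped, at 12.61, 12.66 and 12.71 treated against 12.42, 12.46 and 12.61 untreated. Zmat3 averaged 9.16 in treated and 7.68 in untreated lines. The lowest values belonged to Rpl5 (-0.09), Rps29 (-0.06) and Rpl7a (-0.06).

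**Figure D5:**
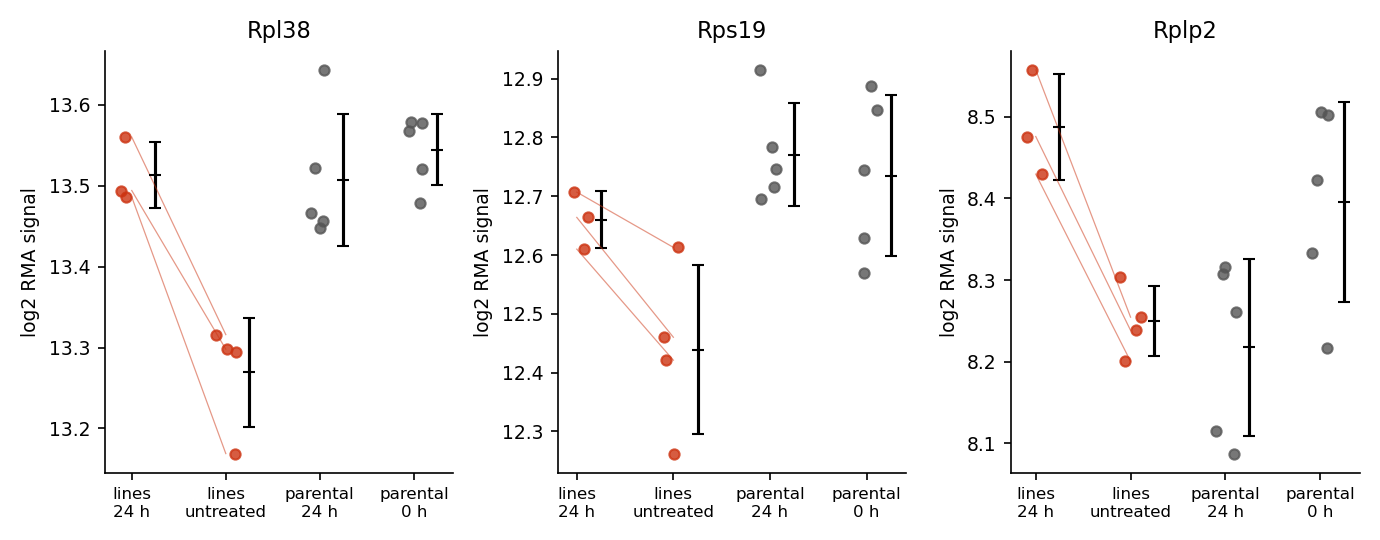
Log2 signal of Rpl38, Rps19 and Rplp2 (y axes, each on its own scale) in resistant lines after 24 h of 750 nM mafosfamide, untreated lines, parental cells at 24 h and parental cells at 0 h. Points are arrays (n = 3, 4, 5 and 5), bars mean ± SD, and lines join the same line; untreated Rpl38 lies at 13.17 to 13.32, below the other 3 groups.

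The difference between the 24 h response of the lines and that of parental cells was then tested. No member passed (0 of 63, against 0.0% of all genes). At an unadjusted p under 0.05 there were 4 members (6.35%), against 7.83% of all genes. Above zero were 54 of 63 differences (85.7%, against 53.1% of all genes), with a median of 0.09 beside 0.02 over all genes. The responses use the same arrays as the 2 comparisons above. The highest differences were those of Rpl14 (0.44), Rplp2 (0.44) and Rps23rg1 (0.42). For Rplp2, the 3 lines changed by 0.23, 0.24 and 0.30 and the 5 parental pairs by -0.10 to -0.25, and the difference had a 95% interval of 0.17 to 0.70 and an adjusted p of 0.338. Of 63 members, 5 (Rplp2, Rps15a, Rpl26, Rpl36 and Rpl9) were higher in all 3 treated lines and lower in all 5 parental pairs, against 1.15% of all genes. For Rpl38 the difference was 0.29 (adjusted p = 0.439), with parental cells at 13.51 ± 0.08 at 24 h and 13.54 ± 0.04 at 0 h. For Rpl14 the parental pairs changed by -0.51, 0.66, -0.38, -0.36 and 0.28, a spread wider than the difference. Rps27l differed by 0.02 (95% interval -0.23 to 0.27), so responses of the lines and the parental cells could not be told apart for this gene at the precision of these arrays. The median SE of the members was 0.12 for the difference, 0.09 for the treated lines and 0.08 for parental cells at 24 h.

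Several members have paralogs with restricted expression. Rpl39l and Rpl10l, which are testis genes, and Rpl3l had mean signals of 5.03, 7.28 and 6.43, at the 7.18th, 45.3rd and 27.6th percentile of genes, and their changes lay between -0.32 and 0.24 in all 9 comparisons. Rpl22, a large subunit protein lost in some T-cell tumors, lay between -0.10 and 0.15 in the 9 comparisons, and Rpl10, Rpl36a, Rplp1, Rpsa and Rps4x between -0.15 and 0.19. Of 63 members, 38 had several probe sets (up to 10), and dimmer ones did not always follow the chosen one. A probe set of Rpl10 with a mean of 7.94 gave -0.66 at 24 h and 1.05 for the difference in response. The chosen one gave -0.08 and 0.14. A probe set of Rpl23a (mean 7.43) gave -0.75 in the untreated lines and 1.01 in the treated lines, and 1 of Rps25 (mean 10.06) gave 0.53 in the untreated lines. When all 34760 probe sets were tested singly, Rps27l at 24 h was the only one of 195 member probe sets called in any of the 9 comparisons (adjusted p = 0.047).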

How the data were processed

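Expression was measured on 30 Affymetrix Mouse Gene ST 1.0 arrays. The deposited log2 values were made by the authors with RMA (justRMA of the affy package; mm9 per the submitters' processing notes), with background correction and quantile normalization. The table held 34760 probe sets, of which 21640 carried 1 symbol in the platform annotation. Each gene was represented by its probe set of highest mean (19937 genes). Groups came from the labels, whose arrays are called biological replicates. The lines had 1 array each per condition. Their p-values and intervals rest on a spread pooled over parental arrays and lines of 1 escalation. They do not measure the spread between repeat cultures of a line. Comparisons were fitted with limma 3.58.1 (lmFit, eBayes; R 4.3.3) with Benjamini-Hochberg adjustment over all genes and a threshold of 0.05, and the fits were tested on simulated data. Covariance was computed here with the order of selection (alternatively the log10 of the selection dose). The study's results describe covariance with measured drug sensitivity, and its supplementary methods describe the order of treatment or resistance.

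Array numbers in the descriptions differ from the title numbers at 6 and 12 h. Correlations of the deviations of same-numbered arrays were 0.27 to 0.82 between 6 h and 0 h, 0.20 to 0.47 for 12 h, 0.13 to 0.34 for 24 h and 0.39 to 0.75 between 48 h and 24 h, all over 0.1, so the description number was taken to pair the arrays. Between 48 h and 0 h the lowest was 0.06, under that limit, so the number was not taken to pair those arrays. The mean correlation there (0.32) was still above that between 24 h and 0 h (0.20). Arrays of different numbers were not compared, so these values do not show that the number marks a true pairing.

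Members, gene lists and tests were chosen with earlier results of these data known. Named genes are, per comparison, all members called, the 3 largest rises and 3 largest falls, and a fixed set (Rps27l, Rpl22, Rpl36a, Rpl39l, Rpl3l, Rpl10, Rpl10l, Rpl5, Rplp0, Rplp1, Rplp2, Rpsa, Rps6, Rps4x and Rps19bp1 of those measured). Others were named after their values were seen. Alternatives were median centring, probe set means, no dim genes, array weights, trended and robust variance, a fibroblast covariate, number blocks, 2 groups only and leaving out each array. The test of every probe set, the fit without number 2 and the fit without the 2 arrays of highest fibroblast mean were added after seeing the data. Arrays have no depth, and their number limits the precision.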

Additional observations from a re-analysis of the deposited data

Results flagged for a closer look

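Within parental times, 160 groups (31 named members and the subunit mean, at 5 times) were examined for a single array far from the rest by Dixon's criterion, which marks about 1 group in 20 by chance. It marked 18, and 11 of these were arrays of description number 2. The subunit mean stood apart at 12.56 at 0 h and at 12.58 at 24 h. Number 2 also had the low values of Rpl12 (10.30) and Rpl7l1 (12.08) at 12 h, Rpl5 at 6 h (13.00), Rplp2 at 48 h (8.23), Rps29 at 6 and 12 h (12.67 and 12.60), and Rpsa at 6, 12 and 48 h (12.99, 12.89 and 12.90).

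Array number 1 stood apart in 4 groups. Rpl24 (12.98) and Rpl27 (13.12) were high at 24 h, Rps19 was high at 48 h (12.93), and Rpl29 was low at 48 h (9.18). The fifth 0 h array, whose interquartile range was the narrowest, had low values of Rpl10l (6.74) and Rpl30 (10.19), and Rpl30 was also low in number 5 at 48 h (10.59).

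In 5 members every resistant line went up over 24 h while every parental pair of equal array number went down, as in 1.15% of all genes. The differences in response were 0.44 for Rplp2, 0.29 for Rps15a, 0.25 for Rpl26, 0.20 for Rpl36 and 0.16 for Rpl9, and none of these 5 passed the limma test of the difference over all genes.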

How the results depend on the processing

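Counts of members called kept within 1.5 times their value under 135 alternatives and moved under 18. At 12 h, against 0, there was 1 (Rps27l) with array weights or with a replicate block on the description number, and 0 to 1 when arrays were left out in turn. At 24 h, against 1, there were 6 with the description number block, 2 with probe set means or the title number block, 0 with the fibroblast covariate, with the 2 groups only and without the 2 arrays of highest fibroblast mean at 24 h (chosen after seeing the data), and 0 to 2 with single arrays left out. With median centring the 1 call was Rps23rg1 (-0.36), not Rps27l (adjusted p = 0.071). Over its 20 alternatives the adjusted p of Rps27l ran from 0.0031 to 0.193. Rpl38 was called (1 member) in the lines with a trended and robust variance and in treated lines with array weights. Members that differed among array numbers fell to 9 from 40 without number 2. The block changed no other call of a member. For 48 h against 0 h, where the lowest same-number correlation fell short of 0.1, it gave 0 members and 654 genes, against 50. Over all genes the calls ran from 0 to 62 at 6 h, 18 to 708 at 12 h, 122 to 4711 at 24 h (483 with the fibroblast covariate), 5 to 654 at 48 h, 14 to 700 for 48 h against 24 h, 6 to 100 in the lines and 3 to 161 in treated lines. The causes were not tested.

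Directions of named members reversed in 31 fits and stayed in all others run. At 6 h these were Rpl12 (-0.030 with array weights), Rpl7a (-0.055 with weights, -0.012 with the description block) and Rps27l (-0.00073 with the title block). Rpl7a at 48 h against 24 h (-0.039) and, for the difference in response, Rpl30 (0.025, and 0.055 with weights) and Rps27l (-0.00011) reversed with the fibroblast covariate, and Rps29 in treated lines with probe set means (0.019). With single arrays left out, Rpl7a ran from -0.093 to 0.27 at 6 h, -0.00056 to 0.36 at 12 h, -0.016 to 0.34 at 48 h, -0.0047 to 0.26 for 48 h against 24 h and -0.27 to 0.088 for the difference. Rps27l ran from -0.0058 to 0.074 at 6 h, -0.018 to 0.062 in the lines, -0.0063 to 0.024 for the slope and -0.039 to 0.066 for the difference. Rpl14 at 12 h ran from -0.30 to 0.00054, Rpl24 at 24 h from -0.023 to 0.16 and Rpl30 for the difference from -0.12 to 0.058.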
